A study of Bos taurus with 33 samples.

Results

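Prostaglandins are short-lived lipid signals made from arachidonic acid. Phospholipases release the fatty acid from membranes, the cyclooxygenases PTGS1 and PTGS2 turn it into prostaglandin H2, and terminal synthases such as PTGES convert that intermediate to prostaglandin E2, which acts on cell-surface receptors and is later taken up and oxidized. In the preovulatory follicle the gonadotropin surge is known to induce PTGS2 in granulosa and cumulus cells, and prostaglandin E2 takes part in expansion of the cumulus and in ovulation.

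The transcripts described here were 10 genes chosen by symbol for their role in this route, out of 17543 genes listed in at least 1 of the 2 deposited tables. They comprised both cyclooxygenases (PTGS1, PTGS2), 3 prostaglandin E synthases (PTGES, PTGES2, PTGES3), receptors for prostaglandin E2 (PTGER2, PTGER4) and F2α (PTGFR), the prostaglandin transporter SLCO2A1 and the oxidizing enzyme HPGD. Of them, 8 were listed for oocytes and 9 for cumulus cells (CC). They were joined by Ensembl identifier, because PTGFR carries the symbol FP among the oocyte values. PTGER2 and PTGER4 in oocytes and HPGD in CC were not analysed here. Of the listed transcripts, 5 in oocytes and 4 in CC passed the filter of 5 CPM (counts per 1000000 reads on genes) or more in a minimum of 4 oocyte or 5 CC pools, so the others were tested by permutation only.

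Each library came from 4 denuded oocytes, or from the CC of 4 complexes, aspirated from the largest follicle of adult suckled postpartum beef cows (Hereford-Angus crossbred). All cows had been pre-synchronized with GnRH, a progesterone insert and prostaglandin F2α, and then received GnRH on day -9 and prostaglandin F2α on day -2. Cows of the small class (follicle up to 11.7 mm, 6 oocyte and 6 CC pools) and of the large class (from 12.7 mm, 6 and 6 pools) did not show estrus and received a second GnRH injection on day 0. Cows of the spontaneous class (11.7 to 14 mm, 4 oocyte and 5 CC pools) showed estrus and received no second injection, so follicle size and the source of the surge cannot be told apart between that class and the other two. Complexes were collected about 23 h after GnRH or estrus by the protocol and about 20 h by another label of the same pools. The labels do not tie complexes to cows across pools, so p-values measure the spread between these pools.

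Depth was 7664375 to 17934916 reads on genes per oocyte library and 1911600 to 5772431 per CC library. A count of 0 allows up to 3 reads, which were worth 0.391 CPM or less for oocytes and 1.57 CPM or less for CC, with counting error alone covered. Summed oocyte and cumulus markers separated the labelled cell types. The oocyte markers summed to 8663 to 13029 CPM in oocytes (8 listed) and at most 6.76 CPM in CC (5 listed). Cumulus markers summed to 167 to 697 CPM in oocytes and 3455 to 9347 CPM in CC. Of these, TNFAIP6, a hyaluronan-binding protein of expanded cumulus, ran from 0.594 to 116 CPM in oocytes and from 880 to 3024 CPM in CC. HAS2 of the same set had the higher median in oocytes, 186 CPM (132 to 248) against 50.5 CPM (19.4 to 176) in CC. Endothelial markers summed to 93.5 to 153 CPM in oocytes and 7.38 to 71.7 CPM in CC, and theca markers to 280 to 540 and 172 to 1272 CPM. The 2 tables were scaled separately, so levels in oocytes and CC are set side by side with no test between them. Transcripts encoded by mitochondria took 12.6 to 44.0% of CC reads and 0.846 to 5.0% of oocyte reads, with the highest share in small CC pool 3.

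PTGS2, the inducible cyclooxygenase, was present in every pool of both cell types. In CC it ranged from 650 to 3053 CPM in small pools (median 2056), from 153 to 4167 CPM in large pools (median 1527) and from 1180 to 3068 CPM in spontaneous pools (median 1693). The spread was widest among large pools, where both the lowest pool of all (large replicate 2, 153 CPM) and the highest (large replicate 4, 4167 CPM) were found, and the ranges of the 3 classes overlapped. The mean was 1959 ± 1018 CPM in small (SD, n = 6), 1803 ± 1378 CPM in large (SD, n = 6) and 1914 ± 703 CPM in spontaneous pools (SD, n = 5).

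The SD of PTGS2 within classes in CC was 1.15 on the log2(CPM + 1) scale, against a median of 0.34 over the 75 retained CC transcripts whose mean CPM lay within 2-fold of it, and it was the highest of those 75. Over all 9712 retained CC transcripts it ranked 205. Without large replicate 2 the SD was 0.77, which ranked 1352 over all retained transcripts and was still the highest of the 68 of like mean level. Without small replicate 4, large replicate 4 or 5, or spontaneous replicate 4, the SD of PTGS2 ranked 2 among those of like mean level. This is a description of these pools with no test.

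In oocyte pools PTGS2 was at 126 to 216 CPM in small pools (median 192), 67.2 to 291 CPM in large pools (median 133) and 130 to 185 CPM in spontaneous pools (median 150). All 16 oocyte pools held at least 905 reads of it, so its presence did not rest on low counts. Its SD within classes was 0.48 in oocytes on the log2(CPM + 1) scale, against a median of 0.36 over the 2268 retained oocyte transcripts of like mean level. Of the 16 oocyte pools, 8 lay below every CC pool, and the others overlapped with large CC pool 2.

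PTGES, the inducible synthase that commonly works with PTGS2, was at 120 to 446 CPM in CC (median 275), with class medians of 301 CPM in small, 287 CPM in large and 275 CPM in spontaneous pools. In oocytes most pools were low. Small replicate 2 held 48.6 CPM while the other small pools held 0.818 to 4.31 CPM, large replicate 6 held 35.9 CPM against 0.0708 to 11.3 CPM in the other large pools, and the spontaneous pools held 0.472, 2.59, 25.9 and 58.3 CPM. High and low pools therefore occurred in every class, and the SD within classes of 2.02 on the log2(CPM + 1) scale ranked 10 among the 3133 retained oocyte transcripts of like mean level.

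PTGES3, the cytosolic synthase, which is also known as the HSP90 cochaperone p23, varied least. It was at 75.4 to 155 CPM in CC (median 107) and at 25.1 to 72.2 CPM in oocytes (median 41.7). Class means in CC were 111 ± 25.0 CPM in small (SD, n = 6), 109 ± 19.1 CPM in large (SD, n = 6) and 108 ± 23.1 CPM in spontaneous pools (SD, n = 5). The oocyte and CC ranges of PTGES and of PTGES3 did not overlap, with CC higher in CPM, which was also so for 12.7% of the 8083 transcripts retained in both tables.

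PTGES2, a membrane-associated synthase, was near the limit of detection. It held 0.356 to 7.95 CPM in CC, with more than 3 reads in 13 of 17 pools, and 0 to 5.71 CPM in oocytes, with reads in 9 of 16 pools. PTGS1, the constitutive cyclooxygenase, was uneven in oocytes, at 0 to 16.5 CPM with at least 5 CPM in 5 of 16 pools. These 5 were small replicates 3 and 5 (16.4 and 16.5 CPM), large replicate 3 (5.75 CPM) and spontaneous replicates 1 and 2 (11.5 and 14.4 CPM). In CC, PTGS1 was at most 2.45 CPM in 16 pools and at 19.3 CPM (68 reads) in large replicate 5. PTGS1 is known to be abundant in platelets. Of the 3 platelet markers listed for CC, GP9 and PPBP were at 0 in that pool and ITGA2B was at 8.24 CPM, its highest value in CC (range of the summed markers 0.463 to 8.58 CPM). Their part in the result was not tested.

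**Figure D1:**
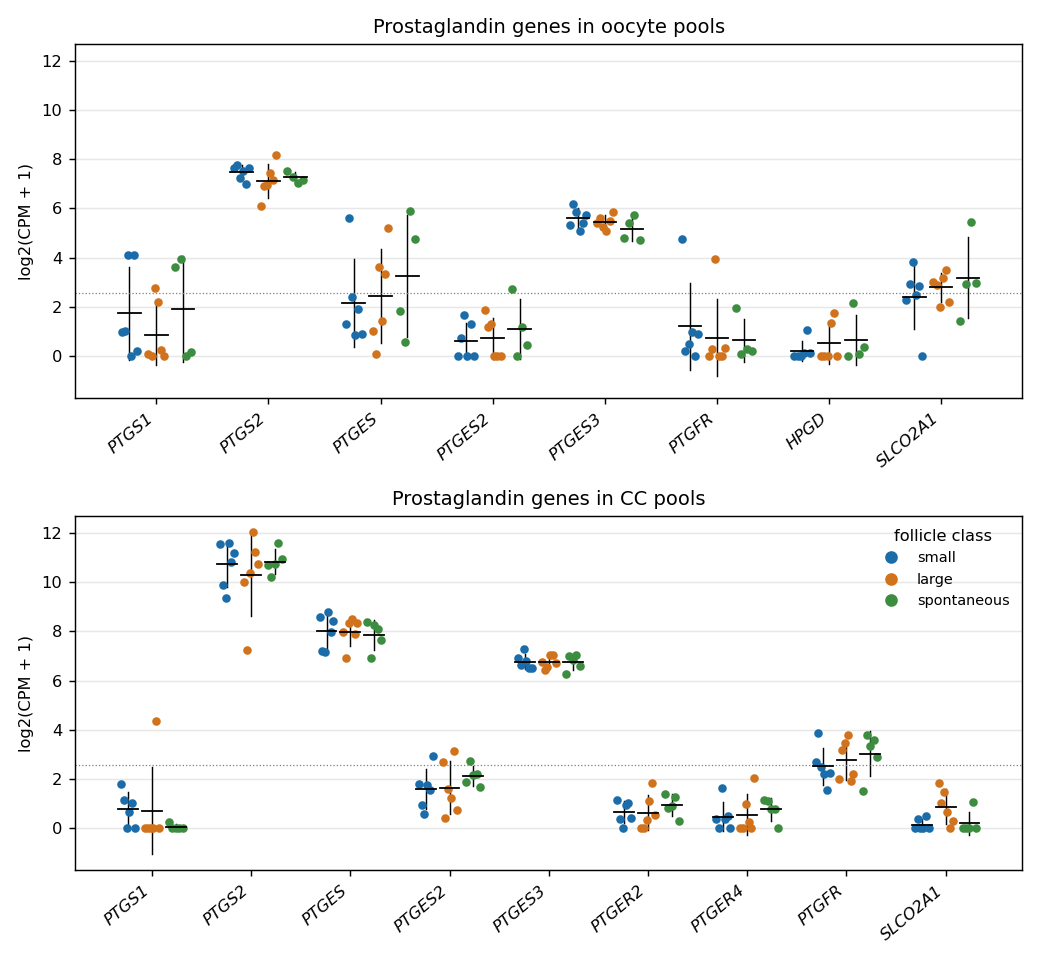
Level of each listed prostaglandin gene in every oocyte pool (top) and CC pool (bottom) as log2(CPM + 1), coloured by follicle class; black bars give the mean ± SD (n = 6, 6 and 4 in oocytes, 6, 6 and 5 in CC) and the dotted line marks 5 CPM. PTGS2, PTGES and PTGES3 stand above that line in all CC pools, the receptors PTGER2 and PTGER4 stand below it in all CC pools, and the classes overlap for every gene.

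The receptors were low in every pool type. PTGER2, which raises cyclic AMP when prostaglandin E2 binds, was at 0 to 2.56 CPM in CC (median 0.780), with at most 9 reads in a pool. PTGER4, the other cyclic AMP-linked receptor for prostaglandin E2, was at 0 to 3.16 CPM in CC (median 0.307), with at most 14 reads in a pool. More than 3 reads were found in 8 of 17 CC pools for PTGER2 and in 7 of 17 for PTGER4, so a difference between classes was hardly measurable at this depth.

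PTGFR, the receptor for prostaglandin F2α, had reads in all 17 CC pools, at 1.88 to 13.5 CPM (median 5.52). Class means were 5.53 ± 4.11 CPM in small (SD, n = 6), 6.71 ± 4.16 CPM in large (SD, n = 6) and 8.33 ± 4.36 CPM in spontaneous pools (SD, n = 5), an order that did not exceed the spread. In oocytes its median was 0.220 CPM, and 2 pools stood apart, small replicate 1 at 25.9 CPM (319 reads) and large replicate 3 at 14.5 CPM (186 reads). The other 14 oocyte pools held at most 2.86 CPM.

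SLCO2A1, which carries prostaglandins into the cell, was found mainly in oocytes. It was at 0 to 13.0 CPM in small oocyte pools (median 5.41), 2.95 to 10.4 CPM in large (median 6.68) and 1.73 to 42.9 CPM in spontaneous pools (median 6.67), where replicate 3 held the 42.9 CPM. In CC it was at most 2.55 CPM, and more than 3 reads were found in 3 of 17 pools. HPGD, the dehydrogenase that inactivates prostaglandins, was at 0 to 3.44 CPM in oocytes, with reads in 8 of 16 pools and the highest value in spontaneous replicate 2 (51 reads).

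Whether the members differed between follicle classes was tested within each cell type on log2(CPM + 1) with limma, fitted over all retained transcripts and called at a nominal p of 0.01 or less. No member passed in any of the 6 comparisons. The calls were 0 of 5 members from small to large oocytes, where 0.655% of all retained transcripts passed, 0 of 5 from small to spontaneous oocytes (0.774% of all) and 0 of 5 from large to spontaneous oocytes (0.943% of all). They were 0 of 4 from small to large CC (0.813% of all), 0 of 4 from small to spontaneous CC (2.38% of all) and 0 of 4 from large to spontaneous CC (1.66% of all). Of these 27 limma tests, 0 had an unadjusted p under 0.05, and the smallest limma p was 0.17 for PTGS2 from small to large oocytes (Benjamini-Hochberg adjusted p = 0.997). The count tests edgeR and DESeq2 on the recovered reads also called 0 members.

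The intervals show what size of difference these pools could hide. For PTGS2 in CC the log2 fold change was -0.44 from small to large (95% interval -1.62 to 0.74), 0.11 from small to spontaneous (-0.66 to 0.87) and 0.55 from large to spontaneous (-0.65 to 1.75). Large CC pool 2 set the direction of 2 of these values, since without it the change was 0.16 from small to large and -0.051 from large to spontaneous. For PTGES in CC the values were -0.039 (-0.67 to 0.59), -0.18 (-0.84 to 0.49) and -0.14 (-0.73 to 0.46) in the same order.

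PTGES3 in CC gave the narrowest intervals. Its log2 fold changes were -0.018 (95% interval -0.41 to 0.38), -0.032 (-0.44 to 0.38) and -0.014 (-0.40 to 0.37) in that order. PTGFR in CC gave 0.24 (-0.71 to 1.20), 0.52 (-0.45 to 1.49) and 0.27 (-0.71 to 1.25). The median log2 fold change of all retained CC transcripts was 0.16 for spontaneous against small and 0.11 for spontaneous against large pools, so changes in these comparisons are read against those shifts.

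In oocytes, PTGS2 changed by -0.34 from small to large (95% interval -0.83 to 0.15), by -0.21 from small to spontaneous (-0.65 to 0.23) and by 0.13 from large to spontaneous (-0.43 to 0.69). The interval of PTGES was far wider, with 1.09 from small to spontaneous (-0.89 to 3.08), and so were those of PTGS1, with 1.05 from large to spontaneous (-0.83 to 2.94), and SLCO2A1, with 0.81 from small to spontaneous (-0.86 to 2.47). PTGES3 gave -0.43 from small to spontaneous (-1.18 to 0.32).

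**Figure D2:**
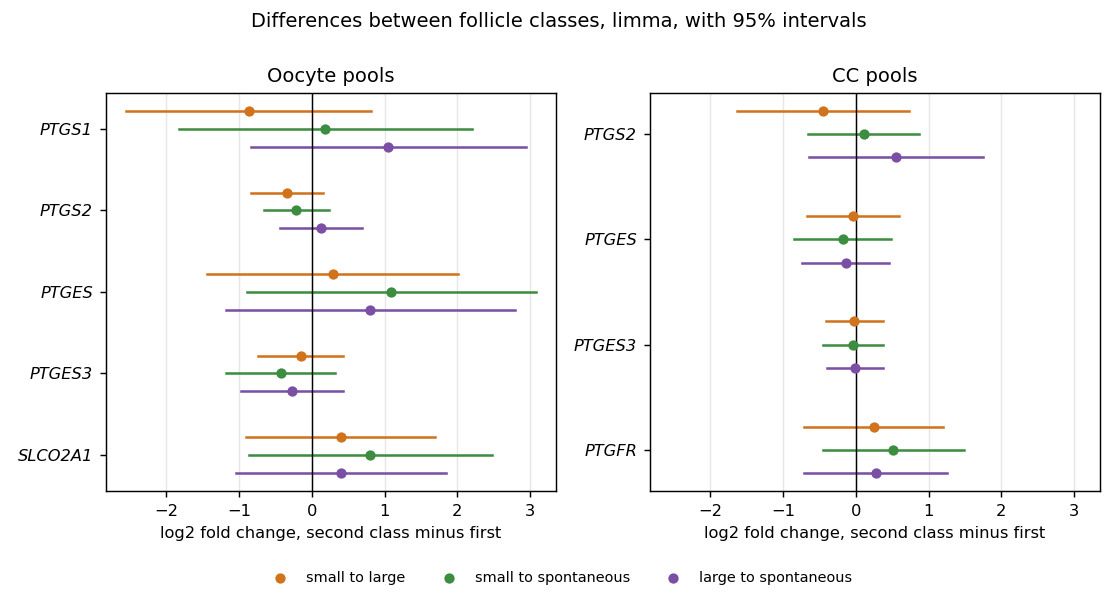
Log2 fold changes on the log2(CPM + 1) scale with 95% intervals from limma for the 5 members retained in oocytes (left) and the 4 retained in CC (right), coloured by comparison of follicle classes. Each of the 27 intervals includes 0, with the narrowest for PTGES3 in CC and the widest for PTGES and PTGS1 in oocytes.

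Two-sided exact permutation tests on class means of CPM covered members under the filter as well. Of 51 such tests 1 had a p under 0.05. It was SLCO2A1 from small to large CC, with 0 to 0.428 CPM in small pools (mean 0.123, n = 6) and 0 to 2.55 CPM in large pools (mean 1.04, n = 6), exact permutation p = 0.0411, unadjusted. Its highest count in those pools was 11 reads, in large replicate 1, and 2 of the 6 large pools held more than 3 reads. The smallest p possible was 0.00216 for 6 against 6 or 5 pools and 0.00476 for 6 against 4. In no comparison did the ranges of a member fail to overlap between classes. The share over all transcripts was not computed for the permutation tests or for these ranges, so neither count is read as particular to the members.

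Across CC pools PTGS2 moved with PLA2G4A, the cytosolic phospholipase A2 that supplies cyclooxygenases with arachidonic acid. PLA2G4A was at 111 to 485 CPM in CC (median 321), and large replicate 2 was lowest for both, with 153 CPM of PTGS2 and 111 CPM of PLA2G4A. On log2(CPM + 1) over the 17 CC pools, Pearson's r was 0.96 and Spearman's rho 0.89, and r was 0.88 without the 2 pools farthest from the median of PTGS2. It was 0.95 among the 6 small pools and 0.998 among the 6 large pools, and no value is given for the 5 spontaneous pools, since r was computed over at least 6 pools only. Their PLA2G4A was at 274, 274, 366, 364 and 321 CPM in replicates 1 to 5, beside 1679, 1180, 1693, 3068 and 1948 CPM of PTGS2. Of the 9711 other retained CC transcripts, PLA2G4A ranked 3 by rho, after GPHN (rho 0.93) and ASCC3 (rho 0.91) and before TANK (rho 0.89) and PPIL4 (rho 0.89). In the RefSeq annotation of assembly ARS-UCD2.0, PLA2G4A is the protein-coding gene next to PTGS2, with no protein-coding gene between them.

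PTGES followed PTGS2 less closely, and it ranked 273 by rho among the 9711 other retained CC transcripts. Over the 17 CC pools r was 0.75 and rho 0.68, r was 0.64 without the 2 farthest pools, and among small pools r was 0.98 and rho 1.0, against 0.89 and 0.60 among large pools. In the spontaneous class, replicates 1 to 5 held 330, 120, 302, 275 and 198 CPM of PTGES, so replicate 2 was lowest in both, while replicate 1, highest in PTGES, lay below replicates 3, 4 and 5 in PTGS2. The prostaglandin breakdown enzyme PTGR2 had a higher r of 0.84 and rho of 0.71 with PTGS2, and r of 0.56 without the 2 farthest pools. PTGES3 showed r of 0.25 and rho of 0.31 with PTGS2, and PTGFR r of -0.11 and rho of -0.071. Pools share their depth and mitochondrial share with each of these values. PTGS2 had r of -0.64 with the mitochondrial share and 0.50 with reads on genes, PLA2G4A -0.69 and 0.56, and PTGES -0.58 and 0.35. After CPM was recomputed without mitochondrial transcripts, r with PTGS2 was 0.95 for PLA2G4A and 0.68 for PTGES. That rescaling changes only the total by which reads are divided, so the part of the mitochondrial share in these correlations was not tested. In the 16 oocyte pools, r with PTGS2 was -0.069 for PLA2G4A and 0.25 for PTGES. These correlations are descriptions with no test, and the difference between cell types was not tested.

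**Figure D3:**
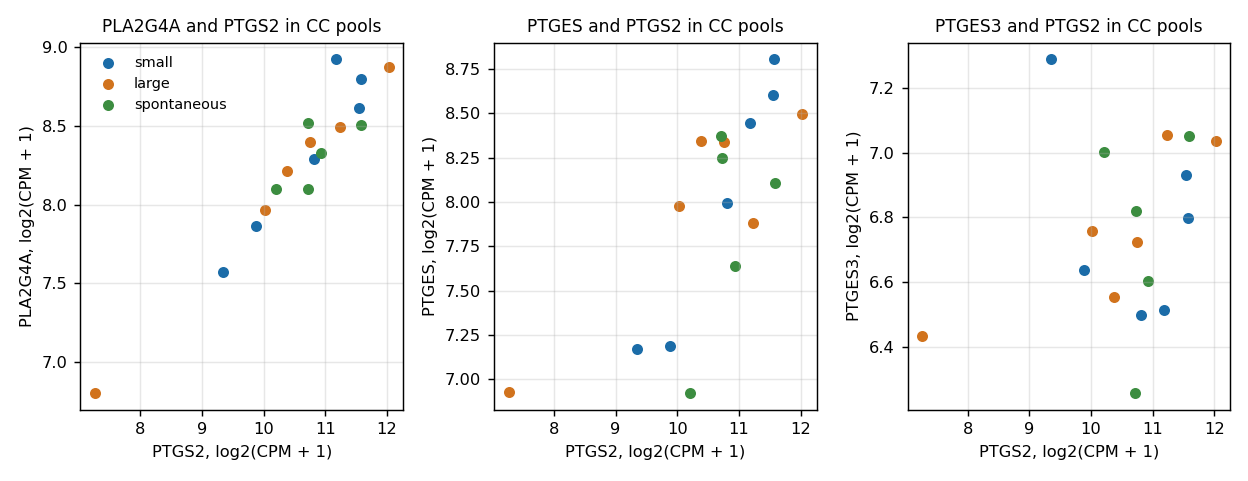
PLA2G4A, PTGES and PTGES3 against PTGS2 in the 17 CC pools, all as log2(CPM + 1) and coloured by follicle class. PLA2G4A is higher where PTGS2 is higher (r = 0.96), PTGES is too with more scatter (r = 0.75) and PTGES3 less so (r = 0.25), and large replicate 2 is the isolated pool at the left with 153 CPM of PTGS2.

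Of the genes that accompany cumulus expansion, TNFAIP6 (r = 0.54), PTX3 (r = 0.58) and RGS2 (r = 0.64) had intermediate correlations with PTGS2 over the 17 CC pools. Without the 2 pools farthest from the median of PTGS2, r was 0.50, 0.38 and 0.44 in that order. RGS2 had r of 0.71 (rho 0.60) with PTGS2 among small pools and 0.99 (rho 1.0) among large pools, so closeness among large pools was not particular to PLA2G4A. HAS2, the hyaluronan synthase, had r of 0.22 over the 17 CC pools. CREB1, which encodes a transcription factor, had r of -0.022 and rho of 0.088, and EREG had r of -0.017 and rho of -0.080. Among large pools r of EREG with PTGS2 was -0.86 and rho was -0.33. The epidermal growth factor-like ligands AREG and EREG were at 0 to 198 CPM and 0 to 286 CPM in CC, with both maxima in spontaneous replicate 4. EREG was at 0 to 5.83 CPM in small, 0 to 12.1 CPM in large and 2.65 to 286 CPM in spontaneous pools, and it passed the threshold from small to spontaneous (log2 fold change 2.62, limma adjusted p = 0.39) and between the large and spontaneous classes (3.21, limma adjusted p = 0.549), where 2.38% and 1.66% of all retained transcripts passed. Without spontaneous replicate 4 these changes were 1.59, which no longer passed, and 2.18, which did. The first call was also lost without small replicates 2 (2.48), 3 (2.54), 4 (2.34) or 5 (2.60) or spontaneous replicate 3 (2.63). The ranges overlapped in both comparisons.

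Because TNFAIP6 was far higher in CC than in oocytes, it served as a measure of CC RNA in the oocyte pools, and the oocyte values of the members were set beside it. The oocyte pool with the least TNFAIP6, large replicate 1 at 0.594 CPM, held 67.2 CPM of PTGS2, the lowest oocyte value. Small replicate 6, with 0.947 CPM of TNFAIP6, held 200 CPM of PTGS2. The ratio of PTGS2 to TNFAIP6 was 2.51 to 211 in oocyte pools and 0.139 to 2.74 in CC pools, and 14 of 16 oocyte pools lay above every CC pool. The other 2, large replicate 6 (2.51) and small replicate 3 (2.60), held the most TNFAIP6 of the oocyte pools, at 116 and 57.1 CPM. For PTGES3 all 16 oocyte ratios lay above every CC ratio. The counts of pools by ratio, here and for PTGES below, rest on TNFAIP6 alone. INHBA, another cumulus marker, named after its values were seen, was also higher in every CC pool than in any oocyte pool. CC small replicate 1 held 2998 CPM of PTGS2 beside 291 CPM of INHBA. That ratio of PTGS2 to INHBA was the highest of the CC pools. It was lower in oocyte small replicates 1 (201 beside 27.4 CPM) and 3 (148 beside 114 CPM), and higher in oocyte small replicate 6 (200 beside 1.81 CPM). Only oocyte small replicates 4, 5 and 6 and large replicates 1 and 2 lay above every CC pool. The other oocyte pools lay within the CC range, so INHBA placed fewer oocyte pools above CC than TNFAIP6 did.

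For PTGES the ratio to TNFAIP6 was 0.00893 to 7.03 in oocyte pools and 0.0724 to 0.356 in CC pools, with 9 of 16 oocyte pools above every CC pool. Over the 16 oocyte pools, r of PTGES with TNFAIP6 was 0.55 (rho 0.49) and r of PTGS2 with TNFAIP6 was 0.44 (rho 0.23), which became -0.20 without the 2 pools farthest from the median of PTGS2. Those 2 were large replicate 1, lowest in both transcripts, and large replicate 6, highest in both, with 291 CPM of PTGS2. Within classes, r of PTGS2 with TNFAIP6 was 0.96 (rho 0.89) among the 6 large oocyte pools and -0.14 (rho 0.086) among the 6 small ones. HAS2 and RGS2 could not serve as such a marker, as they were at 132 to 248 CPM and 1460 to 2823 CPM in oocytes. How much of the oocyte values came from CC RNA was not tested, and in bulk pools fewer cells of a type and less RNA per cell cannot be told apart.

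**Figure D4:**
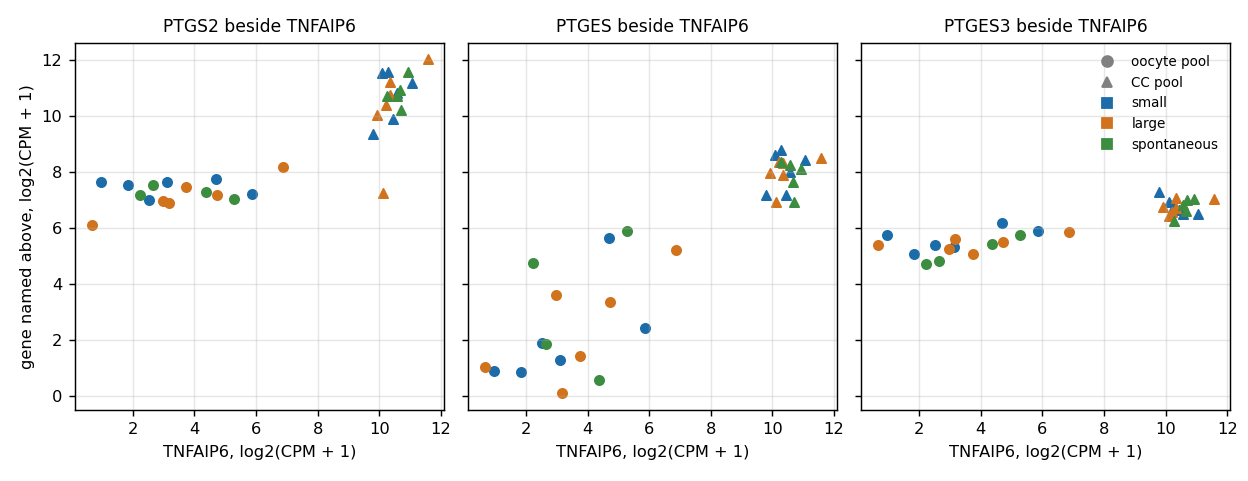
PTGS2, PTGES and PTGES3 against the cumulus transcript TNFAIP6 as log2(CPM + 1) in oocyte pools (circles) and CC pools (triangles), coloured by follicle class; the 2 tables were scaled separately. While oocyte TNFAIP6 runs from 0.594 to 116 CPM, oocyte PTGS2 runs from 67.2 to 291 CPM, with its lowest and highest values in the large pools lowest and highest in TNFAIP6. Oocyte PTGES3 runs from 25.1 to 72.2 CPM, and oocyte PTGES spreads from 0.0708 to 58.3 CPM.

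The rest of the pathway was followed in a list of 43 genes for release of arachidonic acid, other synthases, other receptors, transport, breakdown and cofactors, of which 32 were listed in oocytes and 34 in CC, and 22 were retained in each. The gene with the highest mean CPM in its role, which is not corrected for transcript length, was AKR1B1 among synthases (638 to 911 CPM in oocytes and 29.2 to 88.2 CPM in CC), PTGFRN among receptor-related genes (0.156 to 19.9 and 7.0 to 57.0 CPM), SLCO3A1 among transporters (28.3 to 123 and 29.1 to 141 CPM), PTGR2 among breakdown enzymes (122 to 257 and 32.7 to 210 CPM) and HSP90AA1 among cofactors (1036 to 1740 and 1488 to 2769 CPM). In the release role it was PLA2G12A in oocytes (22.9 to 77.8 CPM) and PLA2G4A in CC. None of these levels was compared between cell types by a test.

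In oocytes 0 of 22 genes of this list passed from small to large (0.655% of all retained transcripts; limma, with 1 at an unadjusted p under 0.05 and 0 called by edgeR or DESeq2), 1 of 22 from small to spontaneous (0.774% of all), and 1 of 22 between the large and spontaneous classes (0.943% of all). In CC 0 of 22 passed from small to large (0.813% of all; limma, with 1 at an unadjusted p under 0.05, 0 called by edgeR and SLCO3A1 called by DESeq2), 2 of 22 from small to spontaneous (2.38% of all), and 1 of 22 between the large and spontaneous classes (1.66% of all). The median log2 fold change of the 22 genes was 0.15 from small to spontaneous CC and 0.18 from large to spontaneous CC, beside 0.16 and 0.11 over all retained transcripts. The genes at an unadjusted p under 0.05 from small to large were FAM213B in oocytes and SLCO3A1 in CC, named after their values were seen. No gene of the list had an adjusted p under 0.05.

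GSTM3, a glutathione transferase of the family that can isomerize prostaglandin H2, was higher in spontaneous oocyte pools. It was at 128 to 584 CPM in small (median 334), 108 to 505 CPM in large (median 215) and 312, 373, 811 and 1131 CPM in spontaneous pools, so that 2 spontaneous pools lay above all others and 2 within their range. The log2 fold change was 0.96 ± 0.32 (SE) from small (limma adjusted p = 0.915) and 1.32 ± 0.36 (SE) from large (limma adjusted p = 0.847). Without spontaneous replicate 3 neither call held, with changes of 0.63 and 0.99. The call from small was also lost without small replicates 1 (0.72) or 5 (0.84) and without spontaneous replicate 4 (0.79). It was lost as well with no filter, with a filter on a mean of at least 1 CPM, with all 3 classes in one fit, with edgeR and with DESeq2 (0.94 to 0.96), and the call from large was lost with no filter (1.32) and with DESeq2 (1.25). These 2 comparisons share the spontaneous pools. The glutathione transferases form a multigene family, so the assignment of reads to GSTM3 is uncertain.

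In CC, PLA2G12A, a secreted phospholipase A2, was at 25.5 to 41.9 CPM in small pools and 40.3 to 59.6 CPM in spontaneous pools, with overlap through small replicate 4. Its log2 fold change was 0.72 ± 0.20 (SE, limma adjusted p = 0.308). PLA2G7, which hydrolyses platelet-activating factor, was at 10.4 to 29.6 CPM in small and 20.7 to 46.8 CPM in spontaneous pools, with a log2 fold change of 0.84 ± 0.28 (SE, limma adjusted p = 0.418). The call of PLA2G12A held with each pool left out and was lost with the replicate number as a block (0.71), where PLA2G7 passed (1.0). The call of PLA2G7 was lost without small replicates 1 (0.72), 2 (0.77), 4 (0.81) or 5 (0.87) and spontaneous replicates 1 (0.68), 2 (0.89), 3 (0.76) or 4 (0.89). With median-of-ratios scaling, which removes the shift of the median transcript, PLA2G12A kept a call (log2 fold change 0.57) and PLA2G7 did not (0.69). With mitochondrial transcripts left out of the CPM neither passed (0.56 and 0.68). PLA2G7 was also lost with no filter (0.84), all 3 classes in one fit (0.84), edgeR (0.70) and DESeq2 (0.69), where PLA2G12A kept its call. SLCO3A1, an organic anion transporter that can carry prostaglandins, was at 60.2 to 141 CPM in large and 29.1 to 76.2 CPM in spontaneous pools, with a log2 fold change of -0.84 ± 0.28 (SE, limma adjusted p = 0.567). Its call was lost without large replicates 4 (-0.72), 5 (-0.72) or 6 (-0.77) and spontaneous replicates 2 (-0.80), 4 (-0.86) or 5 (-0.63). It was lost as well with the replicate block (-0.77), with no filter (-0.84) and with all 3 classes in one fit (-0.84).

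**Figure D5:**
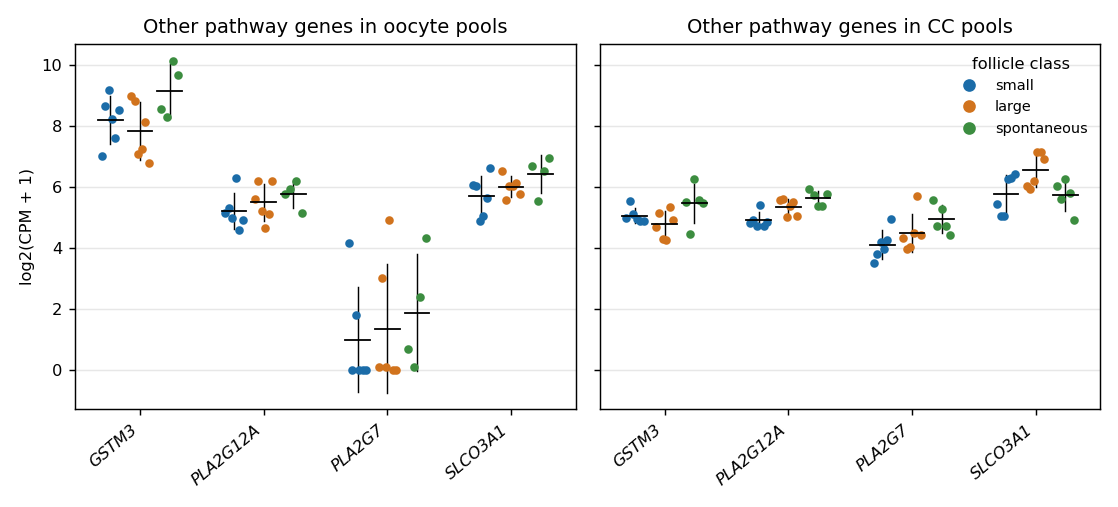
GSTM3, PLA2G12A, PLA2G7 and SLCO3A1, the pathway genes past a nominal p of 0.01 in at least 1 comparison, as log2(CPM + 1) in oocyte pools (left) and CC pools (right), coloured by follicle class with the mean ± SD (n = 6, 6 and 4 in oocytes, 6, 6 and 5 in CC). GSTM3 passed in oocytes and the others in CC, and the ranges of the compared classes overlap for each gene.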

How the data were processed

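Single-end reads were aligned by the authors to the bovine build UMD3.1 (Hisat2) and assigned to Ensembl genes (featureCounts). The deposited unit is CPM, per 1000000 reads on genes, for 16 oocyte and 17 CC pools, each cell type in its own table and scaled on its own. The RNA was amplified before library preparation. Columns were matched to pools by name, with 0 unmatched. Whole reads were recovered from the deposited CPM (100% of values within 0.01 of a whole number). A transcript was retained at 5 CPM or more in a minimum of 4 oocyte or 5 CC pools. The main test was limma 3.58.1 (R 4.3.3) with a mean-variance trend on log2(CPM + 1), which understates changes of low transcripts, between 2 classes, two-sided and without covariates. A call needed a nominal p of 0.01 or less, and in oocyte comparisons with the small class also without small replicate 3. Exact permutation tests used scipy 1.17.1. Alternatives were a pseudocount of 0.1, other filters and scalings, a joint fit of all 3 classes, a block on the replicate number, edgeR 4.0.16, DESeq2 1.42.0 and each pool left out in turn. The limma script was tested on simulated data. The members and gene lists were chosen with earlier results of these data known. Named genes were all members, pathway genes past the threshold or highest in mean CPM within their role, the 5 CC transcripts most like PTGS2, and genes of cumulus expansion by their ranges. PLA2G4B, PLA2G4C, PLA2G2A, PLA2G5, GSTM2, PTGIR, ABCC4 and CEBPB were not analysed here. RefSeq genes of ARS-UCD2.0, a different build, were used for gene order only, so no coordinates are given.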

Additional observations from a re-analysis of the deposited data

Results flagged for a closer look

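Pools were flagged by a cut-off that gives about 5% of groups for normally distributed values. These CPM are skewed and often 0, so the share flagged is not set against chance. Of 49 groups of pools in which a member had more than 3 reads, 14 (28.6%) held a pool far from the others of its class. Of the 14, 10 were in members under the filter, whose values are close to 0 in most pools. In oocytes these pools were small replicate 2 (48.6 CPM) and large replicate 6 (35.9 CPM) for PTGES, small replicate 1 (25.9 CPM), large replicate 3 (14.5 CPM) and spontaneous replicate 1 (2.86 CPM) for PTGFR, small replicate 5 (1.09 CPM) and spontaneous replicate 2 (3.44 CPM) for HPGD, and spontaneous replicate 3 (42.9 CPM) for SLCO2A1. Spontaneous replicate 3 was also highest in its class for PTGES (58.3 CPM) and for GSTM3 (1131 CPM).

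In CC they were large replicate 5 (19.3 CPM) for PTGS1, small replicate 6 (6.58 CPM) for PTGES2, small replicate 3 (2.09 CPM, 4 reads) and large replicate 6 (3.16 CPM, 14 reads) for PTGER4, small replicate 2 (13.5 CPM) for PTGFR and spontaneous replicate 4 (1.09 CPM, 6 reads) for SLCO2A1. In each case the pool was the highest of its class.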

How the results depend on the processing

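No member was called in any of 120 alternative fits, and the smallest p of a member in them was 0.0184. Of 243 member fold changes in alternatives other than leaving out a pool, 7 reversed: PTGS1 from small to spontaneous oocytes with the pseudocount of 0.1 (-0.073), PTGS2 from large to spontaneous oocytes with edgeR (-0.013) and DESeq2 (-0.00434), and PTGS2 from small to spontaneous CC with median-of-ratios scaling (-0.049), without mitochondrial transcripts (-0.068), with edgeR (-0.11) and with DESeq2 (-0.11). Replicate numbers are shared by the classes but not tied to shared animals by the labels, and correlations of same-numbered pools ran from -0.19 to 0.22, with at most 1 pair over 0.1 per comparison, so they were taken to share a number only. With the replicate block the pathway calls were 1 (SLCO3A1) from small to large CC, 1 (PLA2G7) from small to spontaneous CC and 0 from large to spontaneous CC. Other alternatives moved the count of pathway genes called. From small to spontaneous oocytes it was 0 with no filter, with a mean of at least 1 CPM and with all 3 classes in one fit, and edgeR and DESeq2 called CBR3 and not GSTM3, so GSTM3 was lost in 5 of 9 alternatives. From large to spontaneous oocytes it was 0 with no filter and with DESeq2. From small to large CC it was 1 with DESeq2, from small to spontaneous CC 0 without mitochondrial transcripts and 1 with no filter, median-of-ratios scaling, all 3 classes in one fit, edgeR and DESeq2, and from large to spontaneous CC 0 with no filter and with all 3 classes in one fit.

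With each pool left out there were 0 to 1 pathway calls from small to large and 0 to 2 in both other oocyte comparisons, and in CC 0 to 1, 1 to 2 and 0 to 2 in the same order. Fold changes that reversed ran, from small to large oocytes, from -0.26 to 0.98 for PTGES and -0.077 to 0.69 for SLCO2A1; from small to spontaneous oocytes from -0.48 to 0.83 for PTGS1; and from large to spontaneous oocytes from -0.078 to 0.34 for PTGS2, -0.073 to 1.70 for PTGES and -0.35 to 0.99 for SLCO2A1. In CC they ran, from small to large, from -0.79 to 0.16 for PTGS2, -0.21 to 0.17 for PTGES and -0.077 to 0.084 for PTGES3, from small to spontaneous from -0.17 to 0.28, -0.35 to 0.056 and -0.11 to 0.091, and from large to spontaneous from -0.051 to 0.90, -0.35 to 0.096 and -0.090 to 0.11 for the same transcripts. The correlations, the spread of PTGS2 with each pool left out and the alternative fits of EREG were added after seeing the data. The rho of PTGS2 stayed at 0.84 or more with PLA2G4A and 0.62 or more with PTGES under either other scaling and with each pool left out. Among those fits EREG from small to spontaneous CC was also lost with no filter, and DESeq2 gave it no p. Except where a value above shows it, the cause was not tested. Depth limits PTGER2, PTGER4 and SLCO2A1 in CC, PTGFR and HPGD in oocytes, and PTGES2 in both, where most pools held few reads.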
